A study of Chlamydomonas reinhardtii with 18 samples.

Results

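The early light-inducible proteins (ELI or ELIP genes) and the one-helix proteins (OHP genes) of the unicellular green alga Chlamydomonas reinhardtii were followed over 240 min after transfer into medium without iron. A gene was taken when a name given to it in the deposited table was ELI, ELIP or OHP followed by a number. This gave 7 of 17741 genes, 6 ELI genes and 1 OHP gene. The gene name column alone held 2 of these names, ELI1 and OHP2, while the other 5 stood among the synonyms. The genes were ELI1 (Cre16.g679250), ELI2 (Cre09.g393173), ELI3 (Cre09.g394325), ELI4 (Cre02.g143550, which the table also calls LCI16), ELI5 (Cre04.g211850), ELI6 (Cre17.g740950, also LHL4) and OHP2 (Cre06.g251150, with OHP1 as a synonym). The product lines of ELI1, ELI2, ELI3 and ELI4 read early light-inducible protein, and that of OHP2 names a stress-induced one-helix protein. ELI6 is described as an Lhc-like gene induced by strong light, and ELI5 has no product line, so its place in the family rests on its name.

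Strain CC-4532 grew at 24 °C in TAP, a medium that contains acetate, in constant light (90 µmol photons per square metre and second). Cells were spun down at 2500 g for 5 min, washed in TAP lacking Fe-EDTA and put into fresh TAP lacking Fe-EDTA. The 18 polyadenylated RNA samples form 9 groups of 2 cultures, namely pre-wash, post-wash, the early points 5, 10 and 15 min, and the later points 30, 60, 120 and 240 min. All 9 groups carry the same strain and the same iron deprivation label, and how much iron the cells had before the wash is not stated in what was used here. The samples hold no group put back into iron-replete medium, so iron loss and handling cannot be told apart.

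The deposited values are FPKM (sequenced fragments per kilobase of transcript, relative to all mapped fragments), with a single value per gene for both cultures of a group. No value therefore has a replicate error, no test could be run, and no difference has a replicate check. A difference is counted from 2-fold upwards, taken as a difference of 1 in log2(FPKM + 1). The pseudocount of 1 understates differences of weakly expressed genes, which touches ELI5 most. All 7 genes were among the 12580 that passed the filter on low values (2 or more columns with FPKM of at least 1). Scatter between cultures cannot be given. The columns at 10 and 15 min were the closest of the 8 pairs of neighbouring points. They differed over these 12580 genes by 0.17 (robust SD, in log2 units). For pre-wash and post-wash, the widest of these 8 pairs, this SD was 0.44. Both values can hold real change between the points as well as noise, so neither is an error scale. Depth is unknown. FPKM is a share of the sequenced RNA, so more of a transcript per cell and less of other RNA cannot be told apart.

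Early light-inducible proteins belong to the superfamily of light-harvesting chlorophyll-binding proteins and sit in the thylakoid membrane. In plants they appear transiently while seedlings green or are exposed to strong light, and they are thought to hold free pigments so that these do not give rise to reactive oxygen. One-helix proteins carry a lone membrane helix of the same kind, resemble the high-light-inducible proteins of cyanobacteria, and are needed in plants for building photosystem II.

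Before the wash the genes lay at very different levels. FPKM, which is per length and so can be set side by side between genes, was 164 for ELI2 and 115 for OHP2. It was 34.1 for ELI4, 16.1 for ELI6, 14.1 for ELI1, 8.84 for ELI3 and 5.69 for ELI5. ELI2 and OHP2 together made up 77.9% of the summed FPKM of the 7 genes. With no replicate error, neighbours in this order that lie close, such as ELI6 and ELI1, cannot be ranked with any stated confidence.

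**Figure D1:**
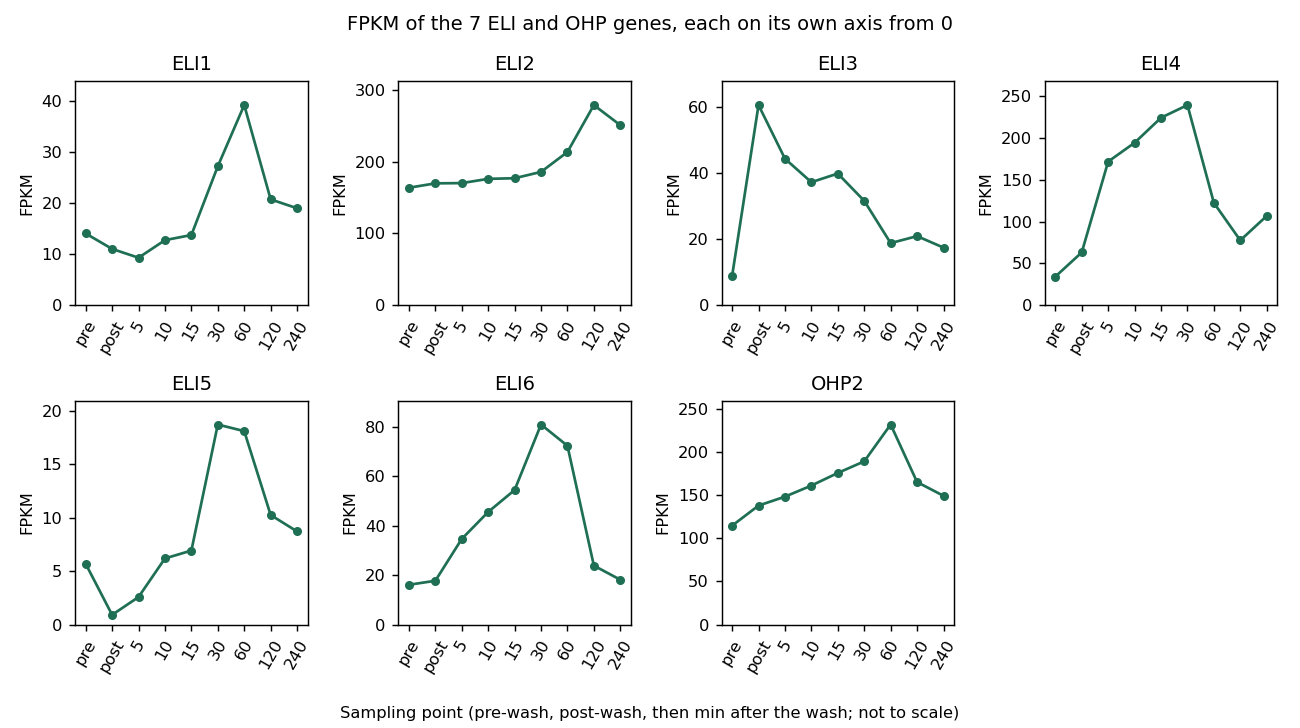
FPKM (vertical axes, each from 0) of the 7 genes at the 9 sampling points (horizontal axes, not to scale), with 1 combined value of 2 cultures per point. ELI3 was highest post-wash at 60.6 FPKM, ELI4, ELI5 and ELI6 at 30 min, ELI1 and OHP2 at 60 min, and ELI2 at 120 min. Over all genes kept, 17.3%, 16.7%, 11.1% and 7.01% were highest at these points.

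ELI3 was the gene of the set furthest above its pre-wash value directly after the wash. It was at 8.84 FPKM pre-wash and 60.6 post-wash, then at 44.4, 37.3 and 39.9 at 5, 10 and 15 min, at 31.6 at 30 min, and at 18.8, 20.9 and 17.4 at 60, 120 and 240 min. Its post-wash value was thus the highest of the 9 and its pre-wash value the lowest, and the later values lay between them. The post-wash value was 6.86-fold the pre-wash value, a log2(FPKM + 1) difference of 2.65 that only 0.397% of the 12580 genes matched or passed. From post-wash to 240 min ELI3 was 3.48-fold lower, and at 240 min it was still 0.91 above pre-wash on the log2 scale, just under 2-fold.

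ELI5 differed in the opposite direction across the wash. It was at 5.69 FPKM pre-wash, 0.918 post-wash, and then 2.59, 6.20 and 6.94 at 5, 10 and 15 min. It then stood at 18.7 and 18.1 at 30 and 60 min, and at 10.3 and 8.72 at 120 and 240 min. The post-wash value was 6.20-fold below pre-wash, a log2 difference of -1.80, and 0.0477% of all genes were that far down or further. The 30 min value was 20.4-fold this low point, the widest span of the 7 genes as a ratio of the highest to the lowest value. The steps from 5 to 10 min (log2 difference 1.01) and from 15 to 30 min (1.31) each passed 2-fold, and between 10 and 15 min the difference was 0.14. Part of the 20.4-fold ratio rests on a post-wash value under 1 FPKM. Against pre-wash the same 30 min value was 1.56 higher on the log2 scale.

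Across the 7 genes, ELI3 was at least 2-fold higher and ELI5 at least 2-fold lower post-wash than pre-wash, that is 1 gene each way. Over all genes kept, 8.47% were at least 2-fold higher and 1.18% at least 2-fold lower post-wash than pre-wash. The other 5 lay between a log2 difference of -0.32 (ELI1) and 0.87 (ELI4). 

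ELI4, which also bears a name for low-CO2-inducible genes (LCI16), had the highest values of the set between 10 and 30 min. It was at 34.1 FPKM pre-wash and 63.1 post-wash, at 172, 194 and 224 at 5, 10 and 15 min, and at 239 at 30 min. It then stood at 122, 77.5 and 107 at 60, 120 and 240 min. The step from post-wash to 5 min was a log2 difference of 1.43, which 0.493% of all genes matched or passed. Its 30 min value was 7.01-fold the pre-wash value, a log2 difference of 2.77. ELI4 was the only gene of the 7 still at least 2-fold above pre-wash at 240 min, by 1.62 on the log2 scale, and its 240 min value was above that at 120 min by 0.46. From 10 to 30 min ELI4 had a higher FPKM than ELI2 and OHP2.

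ELI6, known from Chlamydomonas as LHL4 for its transient appearance in strong light, described a single hump. It was at 16.1 FPKM pre-wash and 17.7 post-wash, at 34.6, 45.6 and 54.4 at 5, 10 and 15 min, and at 80.9 and 72.3 at 30 and 60 min. It was back at 23.9 and 18.2 at 120 and 240 min. The 30 min value was 5.02-fold pre-wash (log2 difference 2.26), while the post-wash value was only 0.13 above pre-wash on that scale. The step from 60 to 120 min was a log2 difference of -1.56, a 3.03-fold lower value, and 0.254% of all genes were as far down or further in that step. At 240 min ELI6 was 0.16 from pre-wash, the smallest net difference of the 7 genes.

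ELI1 was late. It was at 14.1 FPKM pre-wash, 11.0 post-wash, and 9.30, 12.7 and 13.8 at 5, 10 and 15 min. It then reached 27.2 at 30 min and 39.2 at 60 min, and was at 20.7 and 19.0 at 120 and 240 min. The first 15 min brought no value above pre-wash, and the 60 min value was 2.79-fold pre-wash (log2 difference 1.42). From 15 to 30 min ELI1 was higher by 0.94 on the log2 scale, which 0.787% of all genes matched or passed.

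OHP2, whose plant counterpart takes part in making new photosystem II cores, differed little from one point to the next up to 60 min. It was at 115 FPKM pre-wash, 138 post-wash, 148, 161 and 175 at 5, 10 and 15 min, 189 at 30 min and 232 at 60 min, and at 165 and 149 at 120 and 240 min. Each value up to 60 min was above the one before, but no step between neighbouring points up to then exceeded a log2 difference of 0.29. The 60 min value was 2.02-fold pre-wash, with a log2 difference of 1.01 that is barely at the 2-fold mark, and 0.99 after median-of-ratios scaling.

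ELI2 moved least. It was at 164 FPKM pre-wash and 170 post-wash, stayed between 170 and 177 from 5 to 15 min, and was at 186 at 30 min. It was at 214, 279 and 251 at 60, 120 and 240 min. Its highest value was 1.70-fold its lowest, and it met the 2-fold rule at no point against pre-wash or post-wash. After quantile normalization it lay below pre-wash from post-wash to 30 min, furthest at 5 min with a log2 difference of -0.24. At 120 min, when ELI1, ELI4, ELI5, ELI6 and OHP2 were all below their 60 min values, ELI2 was above its own by 0.38 on the log2 scale and ELI3 by 0.15.

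**Figure D2:**
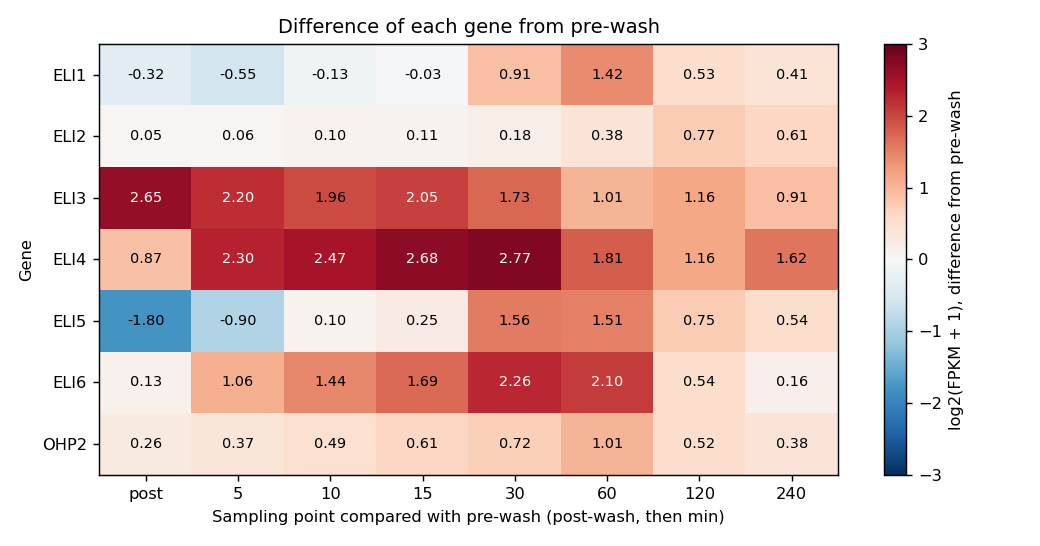
Differences in log2(FPKM + 1) from pre-wash (colour and printed values) for the 7 genes (rows) at post-wash and at 5 to 240 min (columns), 1 combined value per cell of the map. ELI3 is at least 2-fold higher from post-wash to 120 min, ELI4 from 5 min on and ELI6 from 5 to 60 min, ELI5 goes from -1.80 to 1.56, and ELI2 stays at 0.77 or below.

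Counted against pre-wash, the same 3 genes, ELI3, ELI4 and ELI6, were at least 2-fold higher at 5, 10 and 15 min and 0 were lower. Over all genes 8.78%, 7.44% and 7.20% were that much higher at these times, and 1.61%, 1.69% and 2.18% that much lower. ELI6 at 5 min, at 1.06 on the log2 scale, was at 0.74 after quantile normalization. At 30 min ELI5 had joined them, which made 4 of 7, against 5.53% of all genes (0 lower, against 3.74%). At 60 min 6 of 7 were at least 2-fold higher, with ELI2 the exception, against 4.05% of all genes, and 0 were lower, against 3.66%. Of these 6, ELI3 and OHP2 each had a log2 difference of 1.01, and both were under 2-fold after quantile normalization (0.97 and 0.87) and after median-of-ratios scaling (both 0.99), so that 4 were left. At 120 min 2 were higher (ELI3 and ELI4), against 2.33%, and at 240 min only ELI4, against 4.38%. None was lower at either time, against 1.72% and 4.94%.

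The median log2 difference from pre-wash over the 7 genes was 0.13 post-wash (-0.13 after quantile normalization), and 0.37, 0.49 and 0.61 at 5, 10 and 15 min. It was 1.56, 1.42, 0.75 and 0.54 at 30, 60, 120 and 240 min. The median over all 12580 genes stayed between -0.004 and 0.071. From 30 min on all 7 genes were above pre-wash at every point, except that ELI2 at 30 min was -0.05 from it after quantile normalization, and 0 of them met the rule as lower than pre-wash at any point after post-wash. ELI5 came near it at 5 min, with a log2(FPKM + 1) difference of -0.90 and a plain ratio 2.20-fold below pre-wash, and it met the rule with a pseudocount of 0.1 (-1.11).

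Against post-wash the picture differs because ELI3 starts high and ELI5 low in that column. At 5 min 1 gene, ELI4, was at least 2-fold higher, against 1.87% of all genes. ELI5 was then at 0.90 on the log2 scale, a plain ratio of 2.81, and with a pseudocount of 0.1 it was at 1.40, which made 2 genes. At 10 and at 15 min ELI4, ELI5 and ELI6 were, against 3.60% and 5.15%, and at 30 min ELI1 as well, which made 4 of 7 against 8.92%. At 60 min ELI1, ELI5 and ELI6 were at least 2-fold higher, against 7.41%, and ELI3 was at least 2-fold lower, against 14.4%. At 120 and at 240 min ELI5 was higher, against 4.35% and 6.48%, and ELI3 lower, against 10.1% and 12.3%. After quantile normalization ELI1 at 120 min was also at least 2-fold higher (1.07 in place of 0.85), as was ELI4 at 60 min (1.05). These comparisons share the post-wash column, as those above share the pre-wash column.

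**Figure D3:**
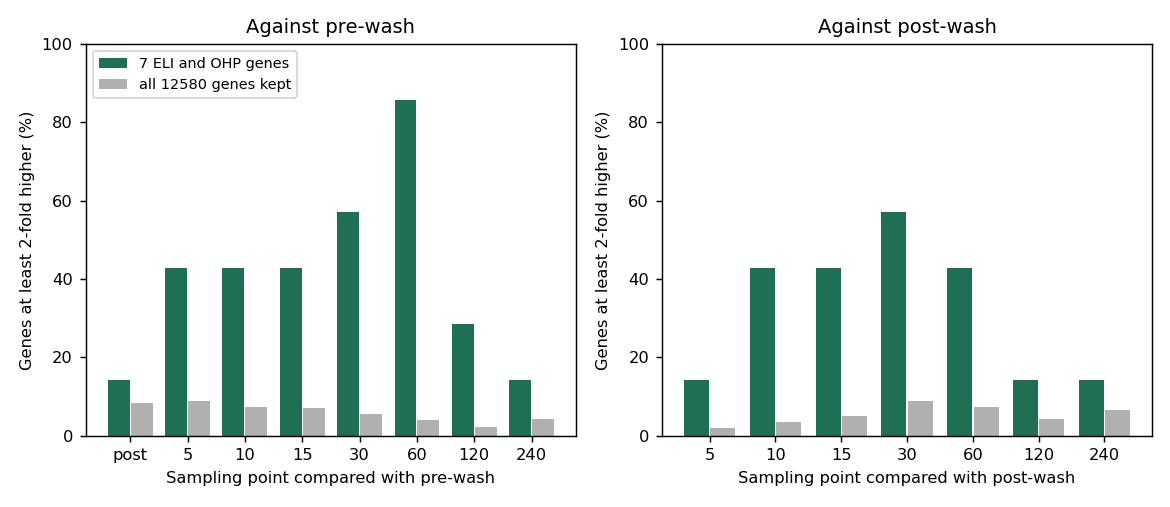
Share (%, vertical axis) of the 7 ELI and OHP genes (green) and of all 12580 genes kept (grey) that were at least 2-fold higher, for each sampling point against pre-wash (left) and post-wash (right). The set reached 6 of 7 genes at 60 min against pre-wash, when 4.05% of all genes did, and 1 of 7 at 240 min, when 4.38% did.

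The summed FPKM of the 7 genes was 357 pre-wash, 461 post-wash and 581 at 5 min. The highest sum was 773 FPKM at 30 min, and it was 716, 597 and 570 at 60, 120 and 240 min. The FPKM total over all genes also differed between columns. It was lowest pre-wash, at 631357, and was 755016 post-wash and 734454 at 30 min. The sums of the 7 genes are not corrected for this. The 5 genes other than ELI2 and OHP2 summed to 78.8 FPKM pre-wash and 398 at 30 min, and the share of ELI2 and OHP2 was 77.9% and 48.5% at these points and 74.3% at 120 min. At 5 min ELI4 (172 FPKM) had come level with ELI2 (170). At 30 min ELI4 (239) was followed by OHP2 (189) and ELI2 (186), which are close to each other. At 60 min the order was OHP2, ELI2, ELI4, and at 120 and 240 min ELI2, OHP2, ELI4.

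**Figure D4:**
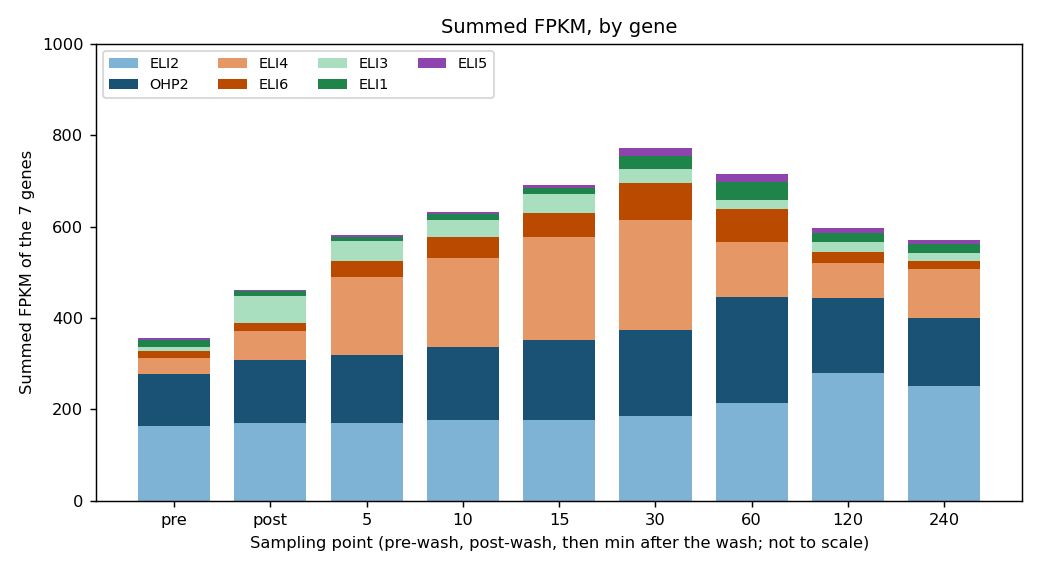
Summed FPKM (vertical axis) of the 7 genes at the 9 sampling points (horizontal axis, not to scale), stacked by gene, with no error since each value is a combined one. The sum went from 357 pre-wash to 773 at 30 min and 570 at 240 min, and the largest single part of the difference up to 30 min is ELI4, from 34.1 to 239 FPKM.

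Over the 9 columns the 7 courses were compared by Pearson correlation of log2(FPKM + 1), as a description over points that share libraries and follow each other in time. Of the 21 pairs the closest were ELI1 with ELI5 (r = 0.88), ELI6 with OHP2 (r = 0.85) and ELI4 with ELI6 (r = 0.81). The furthest apart were ELI3 with ELI5 (r = -0.50) and ELI3 with ELI1 (r = -0.44). ELI3 had no r above 0.55 with any other gene of the set, and ELI2 none above 0.54.

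Over the 3417 genes with a symbol that reached 5 FPKM, those most like ELI2 were TEF10a (r = 0.99), the Fe-assimilating protein gene FEA1 (r = 0.98), LPA1 on Cre10.g430150 (r = 0.97), also called REP27, the ferritin gene FER1 (r = 0.97) and MDAR1 (r = 0.97). LPA1/REP27 serves photosystem II repair in Chlamydomonas. The value of r takes no account of size. TEF10a, at 105 FPKM pre-wash and 162 at 120 min, had a span like that of ELI2, as did LPA1. FEA1, at 1167 and 4181 at these points, had a much wider one. FER1 and MDAR1 did too, and both were highest at 240 min (878 and 190 FPKM). Those most like ELI3 were the alpha tubulin genes TUA1 (r = 0.97) and TUA2 (r = 0.95), SHD1 (r = 0.97), and the acidic ribosomal protein genes RPP1 (r = 0.95) and RPP2 (r = 0.95). The genes most like ELI4 were the mitochondrial carrier gene MITC11, the cytochrome P450 gene CYP745A1 and the starch debranching enzyme gene ISA1 (r = 0.98 each). The glycerate kinase gene GLYK1 and ABC2 followed (r = 0.97 each). With only 9 points, close courses are common. Between 3 (OHP2) and 30 (ELI1) of the 3417 named genes compared had r above 0.95 with a given gene of the set. With unnamed genes included the range was 6 (OHP2) to 50 (ELI1) of 8115, and for OHP2 and ELI3 some unnamed genes were closer than some of those named.

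For ELI6 the closest were PGM19 (r = 0.99), UBC10, the selenoprotein genes SELH1 and SELU1, and the cysteine dioxygenase gene CDO1 (r = 0.98 each). For ELI1 they were MFT28 (r = 0.99) and TOM40, ATPVA1, BIO2 and SPPA1 (0.99, 0.98, 0.98 and 0.98). For ELI5 they were SEC62, HEP1, LAS2 and ERG25 (0.98 each) and LCI8 (0.97). For OHP2 they were UBC18 (0.97), the chaperonin gene CPN60C (0.96), ATPVE, DNJ13 and ATPVL1 (0.95 each). Without the pre-wash column only 7 of these 35 gene pairs were still among the closest, and without the post-wash column 20. Which names rank closest thus depends on the columns used. No other column was left out in turn. Of the 5 named for each, ELI3, ELI4, ELI5 and OHP2 kept 0 without pre-wash, while ELI1 kept 4, ELI2 2 and ELI6 1. Without post-wash ELI5 kept 0 and ELI3 1, and the others kept 3 to 5. The gene named first for each of the 7 still had r of 0.95 (OHP2) or more without pre-wash. For the genes that kept 0, it was no longer among the closest 5.

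In the RefSeq gene table all 7 genes were found, and 0 of their models overlapped a neighbouring model. ELI2 and ELI3 carry identifiers from the same chromosome but are not neighbours, and no 2 of the 7 lie side by side. Next to ELI4 lies FEE1, which ran a similar course at a much lower level (r = 0.93), from 0.757 FPKM pre-wash to 1.87 at 15 min and 1.03 at 60 min. These FEE1 values lie near the filter limit of 1 FPKM. On the other side of ELI4, PDE28 was at 0.710 FPKM pre-wash and 0.105 at 30 min. PDE28 stayed under 1 FPKM at every point and did not pass the filter, so its course is not compared. Whether the counting used strand is not stated in what was used here.

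Related proteins outside the set were looked at next. The energy-quenching LHCSR proteins, light-harvesting-like proteins that dissipate excess absorbed energy as heat, had far wider spans. LHCSR1 was at 6.40 FPKM pre-wash and 501 at 60 min, 78.3-fold apart, and was at 147 and 119 at 120 and 240 min. LHCSR3.1 (0.843 FPKM pre-wash) and LHCSR3.2 (1.41) were at 43.9 and 54.3 at 30 min and at 56.8 and 70.3 at 240 min, their highest values. These last are near-identical genes, so their separate values are uncertain. ELI6 and LHCSR1 both came down from 60 to 120 min, whereas ELI6 was back near pre-wash at 240 min and LHCSR1 was not. PSBS1 and PSBS2, coding for the other known quenching protein, never exceeded 0.645 and 0.410 FPKM and did not pass the filter. The LHCSR1 course had an r of 0.94 with OHP2 and 0.80 with ELI6, and of 0.45 with ELI2 and 0.20 with ELI3.

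Of the relatives chosen by their product lines after the values were known, HLIP1 (Cre02.g109950), a single-helix protein, was at 142 FPKM pre-wash, 271 at 30 min and 350 at 60 min, and at 306 and 290 at 120 and 240 min. Like OHP2 it was highest at 60 min, but it was still 1.03 above pre-wash on the log2 scale at 240 min (0.95 after quantile normalization), where OHP2 was 0.38 above. The gene Cre03.g199535, annotated as LHL3, took another way. It was at 319 FPKM pre-wash, 180 at 15 min and 578 at 120 min, lowest when ELI4 and ELI6 were high, and highest at the same point as ELI2. Its r was 0.84 with ELI2, -0.56 with ELI4 and -0.64 with ELI3.

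**Figure D5:**
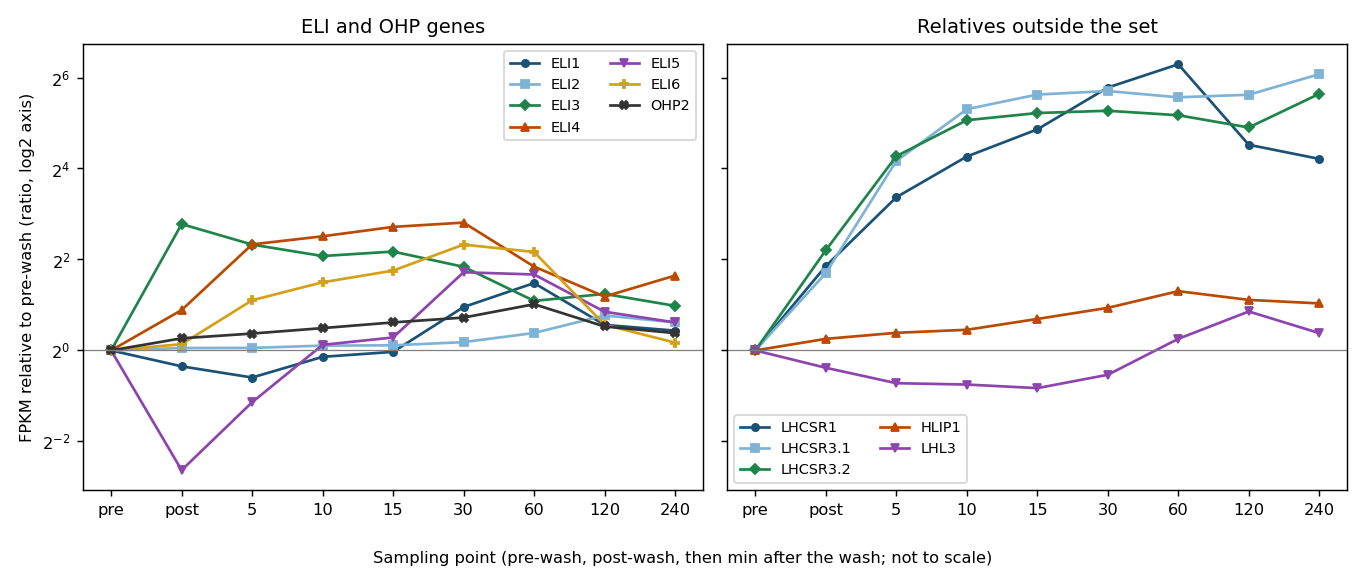
FPKM relative to pre-wash (vertical axis, ratio on a log2 axis shared by both panels) at the 9 sampling points (horizontal axis, not to scale) for the 7 ELI and OHP genes (left) and 5 relatives (right), 1 combined value per point. LHCSR1 reached 78.3-fold its pre-wash value, while the highest ratio among the 7 genes was 7.01 for ELI4.

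Other genes of chlorophyll-binding and photosystem II upkeep were taken from lists of names, not all of which led to a gene. The photosystem II list held 22 names and gave 14 genes, and the chlorophyll list 14 and 12. The carotenoid list held 13 names and gave 9 genes, of which 7 passed the filter. The antenna list gave all 21. In the antenna list, the bulk light-harvesting proteins, 0 of 21 genes lay at least 2-fold above pre-wash at 30 min, against 5.53% of all genes, and 1 below, against 3.74% (LHCBM6, 2177 and 948 FPKM, a gene with near-identical relatives between which reads could have been split), and the list median was -0.27 when that of the 7 genes was 1.56. At 240 min 11 of 21 were higher, against 4.38% of all genes, and 0 lower, against 4.94%, with a median of 1.01, when the median of the 7 genes was 0.54. After quantile normalization 6 of the 21 were higher at 240 min, with a median of 0.63, and 3 were lower at 30 min. ELI4, ELI5 and ELI6 had their highest values at 30 min, as did 16.7% of all genes, and the antenna median was then below pre-wash. In the chlorophyll list 5 of 12 genes were at least 2-fold lower than pre-wash at 5 min, against 1.61% of all genes, and 0 higher, against 8.78%. The 3 furthest down were POR (250 and 55.2 FPKM), the light-dependent protochlorophyllide reductase, CHLH1 (138 and 35.4) and GUN4 (67.2 and 19.6). Post-wash, 3 of the 12 were already at least 2-fold lower than pre-wash, against 1.18% of all genes, and 0 higher, against 8.47%. At 120 min 0 were lower, against 1.72%, and 0 higher, against 2.33%. POR was then at 429 FPKM, CHLH1 at 217 and GUN4 at 99.7.

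In the carotenoid list, 3 of 7 genes lay at least 2-fold above pre-wash at 30 min, against 5.53% of all genes, and 0 below, against 3.74%, with a median of 0.97. These were the carotene hydroxylase gene CBH1 (16.0 and 90.9 FPKM), the zeaxanthin epoxidase gene ZEP1 on Cre02.g082550 (28.3 and 76.7) and the phytoene synthase gene PSY1 (46.0 and 108). CBH1 resembled ELI5 in its low post-wash value, 2.999 FPKM. In the photosystem II assembly and repair list, 3 of 14 genes lay at least 2-fold above pre-wash at 60 min, against 4.05% of all genes, and 0 below, against 3.66%, with a median of 0.73. These were the thylakoid protease gene FTSH1 (109 and 280 FPKM), the membrane-shaping protein gene VIPP1 (133 and 300 FPKM) and TEF30 (130 and 283), whose protein acts in photosystem II repair in Chlamydomonas. ELI1 and OHP2 had their highest values at the same 60 min point, as did 11.1% of all genes.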

How the data were processed

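RNA of 18 samples (9 groups of 2 cultures) was sequenced. The deposited table holds FPKM, made by the authors, for 17741 genes with v5.6 identifiers, per the file headers. The submitters' processing notes name STAR 2.4.1 and Cuffdiff 2.0.2 without saying how libraries were scaled, whether strand was used or what was filtered. The authors combined the cultures of each group into 1 column, so the planned limma fits could not be run, and differences are described by size. Another 9 columns of samples outside the 18 were not used. Depth is unknown, since the most common ratio among the lowest values of neighbouring columns was shared by at most 2.42% of those genes, and whole reads were not recovered.

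Differences are in log2(FPKM + 1), over genes at FPKM of at least 1 in 2 or more columns. Alternatives were median-of-ratios scaling, quantile normalization, a pseudocount of 0.1, no filter, and a minimum FPKM of 5 in place of 1. Median-of-ratios scaling is close to a repeat of the main values, since its log2 factors lay between 0.001 and 0.033. The counting and scaling steps were tested on simulated data. For likeness, the 5 genes with a symbol (5186 have a name) and the highest r were named. Of each companion list, up to 4 genes with the largest differences could be named. The members, lists and comparisons were chosen with earlier results of these data known. In the lists, 2 entries whose product line names an elongation factor were left out after the values were seen. RefSeq (assembly Chlamydomonas_reinhardtii_v5.5) served for gene order only. Calculations used Python 3.11.15, numpy 2.4.6 and pandas 2.3.3.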

Additional observations from a re-analysis of the deposited data

How the results depend on the processing

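No paired analysis was possible because each group has a single combined column, and leaving out cultures was not run for the same reason. The number of ELI and OHP genes at least 2-fold different moved by over 1.5 times under 1 alternative, at 5 min against post-wash, where a pseudocount of 0.1 gave 2 genes (ELI4 and ELI5) in place of 1. The closest genes by course were less stable. Of 35, 7 were still among the closest without the pre-wash column, 20 without the post-wash column (chosen after seeing the data) and 33 with a pseudocount of 0.1. Those 7 belonged to ELI1 (4), ELI2 (2) and ELI6 (1) only. Of 900 single differences recomputed for the 7 genes and 5 relatives, 874 kept their sign and their side of 2-fold, 15 crossed 2-fold, and 11 under 2-fold changed sign. Among those that crossed, ELI6 at 5 min against pre-wash was 0.74 under quantile normalization in place of 1.06. The cause was not tested. Quantile normalization moved the median of all genes against pre-wash by -0.11 post-wash and by -0.13 at 5 min. The medians of the companion lists printed kept their sign under the same alternatives, chosen for these after seeing the data. Unknown depth limits ELI5 most, at 0.918 FPKM post-wash.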
